A study of Mus musculus with 2 samples.

Results

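Cells that carried arginase-1 transcripts without transcripts of the inducible nitric oxide synthase gene were taken from single-cell RNA libraries of the inflamed mouse central nervous system. A barcode was kept when it had 500 or more genes, 1000 or more unique molecular identifiers (UMIs, one per captured transcript) and under 10% mitochondrial UMIs. A kept barcode was selected when it had 2 or more UMIs of Arg1 and none of Nos2, Il6, Cd3e, P2ry12 or Ly6g. In all, 985 of 25603 kept cells met the rule. There were 443 of 12305 cells in the Stat4fl/flCD11cCre library and 542 of 13298 in the WT library. They are called Arg1+Nos2- cells here. The rule reads RNA of the same cells, so their Arg1 level and every difference between them and cells outside the rule is a description.

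Both groups were C57BL/6 mice given MOG peptide in complete Freund's adjuvant with pertussis toxin, which induces experimental autoimmune encephalomyelitis (EAE), a model of multiple sclerosis. Stat4fl/flCD11cCre mice carry loxP-flanked Stat4 alleles and express Cre recombinase from the CD11c promoter. WT mice served as their reference, and no untreated or Cre-only group was analysed here. Mononuclear cells of the central nervous system were collected on day 15, pooled within each genotype, sorted for MHC class II and CD11c and run on a 10x Genomics 3′ kit. Each genotype is therefore 1 library from 1 pool of mice. No test between genotypes was possible, genotype and library cannot be told apart, and every interval below is an exact 95% interval that covers counting error only.

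Arginase-1 splits L-arginine into ornithine and urea, while the inducible nitric oxide synthase encoded by Nos2 turns the same amino acid into nitric oxide and citrulline. In EAE lesions, monocyte-derived macrophages can carry either enzyme, and arginase-1 is known to mark a state linked to lipid handling and resolution. Gpnmb, Fabp5 and Spp1, given as companion markers, encode a lysosomal glycoprotein, a fatty acid binding protein and osteopontin. STAT4 is a transcription factor downstream of interleukin-12 and interleukin-23, best known for driving interferon-γ production by lymphocytes. CD11c is found on dendritic cells and also on activated macrophages and microglia.

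The libraries held 12534 barcodes and 120221740 gene UMIs for Stat4fl/flCD11cCre, and 13820 barcodes and 122975017 gene UMIs for WT. Arg1+Nos2- cells had a median of 11064 UMIs and 2912 genes in the Stat4fl/flCD11cCre library, against 8277 UMIs and 2481 genes in the WT library. Selected Stat4fl/flCD11cCre cells were thus deeper, which bears on any share of cells with a UMI. Such shares were therefore taken after every cell was thinned at random to 2500 UMIs, which left out 7 of the Stat4fl/flCD11cCre cells and 20 of the WT cells. The libraries shared 43 barcodes, among them 2 selected Stat4fl/flCD11cCre cells and 0 selected WT cells. Stat4, the targeted gene, gave 38 UMIs over the selected Stat4fl/flCD11cCre cells (7.11 CPM, counts per 1000000 gene UMIs) and 69 UMIs over the selected WT cells (14.4 CPM). The log2 ratio of Stat4fl/flCD11cCre over WT was −1.02 (95% interval −1.63 to −0.43). In WT, 1 cell held 19 of the 69 UMIs (27.5%), and at equal depth a Stat4 UMI was found in 1.61% of the Stat4fl/flCD11cCre cells and 1.72% of the WT cells. Which exons are floxed is not stated in the labels, and reads near the 3′ end of a transcript do not check a deletion upstream of them.

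Arg1+Nos2- cells made up 3.60% of the kept Stat4fl/flCD11cCre cells (exact Clopper-Pearson 95% interval 3.28 to 3.94) and 4.08% of the kept WT cells (3.75 to 4.43). The ratio of the shares was 0.883 (0.777 to 1.003), at the edge of counting error. The interval lay below 1 with a stricter cell filter (0.875, or 0.768 to 0.997), with 1 or more Arg1 UMIs (0.810, or 0.723 to 0.907) and with cells thinned before selection (0.869, or 0.774 to 0.975). The direction depended on what the cells were counted against. Among cells with 2 or more Arg1 UMIs, the selected share was 32.0% in Stat4fl/flCD11cCre and 26.6% in WT, a ratio of 1.20 (1.06 to 1.37). Among kept cells with under 2 UMIs of P2ry12, a gene of microglia, the shares were 7.59% in Stat4fl/flCD11cCre and 6.52% in WT, a ratio of 1.17 (1.03 to 1.32).

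The gates that separate these cells from other Arg1 cells removed different fractions in the libraries. Of the cells with 2 or more Arg1 UMIs, 277 of 1385 had a Nos2 UMI in Stat4fl/flCD11cCre and 691 of 2039 (33.9%) in WT. Among cells that passed all other parts of the rule, the Nos2 gate removed 125 of 568 cells (22.0%) in Stat4fl/flCD11cCre and 217 of 759 (28.6%) in WT. The P2ry12 gate removed more cells than the Nos2 gate did, 418 of 861 (48.5%) in Stat4fl/flCD11cCre and 478 of 1020 (46.9%) in WT. A single UMI was enough to fail a gate.

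Arg1 varied widely among the selected cells. In the Stat4fl/flCD11cCre library the lower quartile, median, upper quartile and maximum were 6, 15, 33.5 and 161 Arg1 UMIs per cell. In the WT library they were 4, 8, 20 and 142. The cells also differed in depth, and the summed level was 1973 CPM in Stat4fl/flCD11cCre and 1667 CPM in WT, a log2 ratio of 0.24 (0.20 to 0.29). Cells with 10 or more Arg1 UMIs made up 63.9% of the selected cells in Stat4fl/flCD11cCre and 44.8% in WT. After thinning, an Arg1 UMI was found in 87.6% of selected Stat4fl/flCD11cCre cells and 85.4% of selected WT cells. Cells with 2 or more UMIs of the T cell gene Cd3e should lack Arg1, and free RNA or mixed droplets can add it. Their thinned shares were 3.81% in Stat4fl/flCD11cCre and 5.18% in WT. With the natural killer cell gene Ncr1 in place of Cd3e, Arg1 was found in 6 of 243 Stat4fl/flCD11cCre and 10 of 258 WT cells. With the B cell gene Cd79a the shares were higher, at 23 of 135 Stat4fl/flCD11cCre and 64 of 294 WT cells. The Cd3e cells therefore do not give 1 background level for all cell types.

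**Figure D1:**
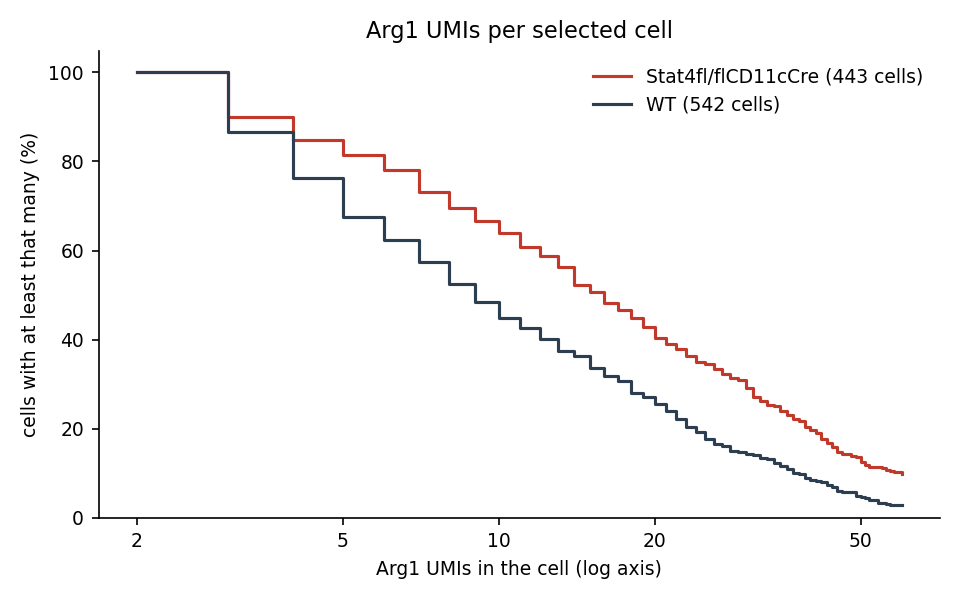
Arg1 UMIs per selected cell on a log axis against the percentage of cells with at least that many, in the Stat4fl/flCD11cCre library (443 cells) and the WT library (542 cells); counts of 60 or more are pooled at 60. The Stat4fl/flCD11cCre curve lies above the WT curve, with medians of 15 and 8 UMIs, in cells that also had more UMIs in all.

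At the edge of the rule, 44 selected Stat4fl/flCD11cCre cells and 72 selected WT cells had exactly 2 Arg1 UMIs. Another 92 Stat4fl/flCD11cCre cells and 172 WT cells had 1 Arg1 UMI and met everything else. Spp1 stood at 187 CPM just inside the threshold and 116 CPM just outside it in Stat4fl/flCD11cCre, and at 77.8 CPM inside and 240 CPM outside in WT. Fabp5 stood at 703 CPM inside and 878 CPM outside in Stat4fl/flCD11cCre, and at 282 CPM inside and 780 CPM outside in WT. These markers therefore did not step up at the threshold alike in the libraries.

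The selected cells carried the genes of macrophages. UMIs of 3 or more of 12 macrophage identity genes were found in 441 of the 443 Stat4fl/flCD11cCre cells and 538 of the 542 WT cells, without thinning. By the same count, 3 or more of 10 neutrophil genes were found in 30.9% of Stat4fl/flCD11cCre and 22.1% of WT cells. For 10 microglia genes the shares were 30.5% and 30.8%. Lyz2, which encodes lysozyme, stood at 26857 CPM in Stat4fl/flCD11cCre and 20210 CPM in WT, and Csf1r, the receptor for macrophage colony-stimulating factor, at 496 CPM in Stat4fl/flCD11cCre and 504 CPM in WT. Adgre1, which encodes F4/80, stood at 109 CPM in Stat4fl/flCD11cCre and 92.3 CPM in WT. Against all other kept cells, Lyz2 was 3.41-fold in Stat4fl/flCD11cCre and 2.97-fold in WT, while Adgre1 was 0.834 times and 0.859 times. Genes of inflammatory monocytes were also present, with Ly6c2 at 747 CPM in Stat4fl/flCD11cCre and 956 CPM in WT, and the chemokine receptor gene Ccr2 at 362 CPM in Stat4fl/flCD11cCre and 353 CPM in WT.

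The 3 companion markers were uneven among the cells. Summed levels in Stat4fl/flCD11cCre and WT were 1783 and 1036 CPM for Fabp5, 600 and 526 CPM for Spp1, and 379 and 288 CPM for Gpnmb. At equal depth, Gpnmb was found in 30.0% of Stat4fl/flCD11cCre and 23.8% of WT cells, Spp1 in 23.6% and 19.9%, and Fabp5 in 46.8% and 39.5%. Without thinning these shares were 41.1% and 35.6% for Gpnmb, 38.8% and 31.5% for Spp1, and 61.2% and 53.0% for Fabp5. In the Cd3e cells the thinned shares were 1.36% and 1.77% for Gpnmb, 3.54% and 3.28% for Spp1, and 15.1% and 12.4% for Fabp5, each with Stat4fl/flCD11cCre first. All 3 markers were found together in 10.3% of the thinned Stat4fl/flCD11cCre cells and 5.36% of the thinned WT cells. None of the 3 was found in 42.0% of Stat4fl/flCD11cCre and 46.7% of WT cells. Without thinning, none was found in 26.2% of Stat4fl/flCD11cCre and 31.7% of WT cells, so the set is not uniform for these markers.

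Genes with 50 or more CPM in the selected cells of both libraries were ranked against all other kept cells by the library with the lower ratio. The 15 highest were Arg1, F7, Apoc2, Ms4a7, Spp1, Gpnmb, Fabp5, Fcor, Mmp12, Fn1, Sash1, Slc7a2, Myof, Acp5 and Saa3. Gpnmb was 7.53-fold higher than in the other cells in Stat4fl/flCD11cCre and 4.23-fold in WT, and Fabp5 6.21-fold and 4.03-fold. F7, which encodes coagulation factor VII, stood 7.30-fold higher in Stat4fl/flCD11cCre and 5.46-fold in WT. Apoc2, the activator of lipoprotein lipase, stood at 1127 CPM in Stat4fl/flCD11cCre and 1193 CPM in WT, 5.51-fold and 4.77-fold above the other cells. Slc7a2, which encodes a transporter that brings arginine into the cell, was 5.68-fold higher in Stat4fl/flCD11cCre and 3.55-fold in WT. Mmp12 encodes the macrophage metalloelastase and Fn1 encodes fibronectin, and they stood 4.37-fold and 4.06-fold above the other cells in Stat4fl/flCD11cCre, and 3.88-fold and 3.68-fold in WT. Acp5, the tartrate-resistant acid phosphatase gene, and Saa3, an acute phase gene, ranged from 3.38-fold to 5.64-fold over both libraries.

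The set closest by rule was the Arg1+Nos2+ cells, which passed the same rule except that they had a Nos2 UMI (125 cells in Stat4fl/flCD11cCre and 217 in WT). Arg1 itself was lower in Arg1+Nos2- cells, at 0.660 times the Arg1+Nos2+ level in Stat4fl/flCD11cCre and 0.718 times in WT. Several genes ranked highest against all other kept cells were also high in Arg1+Nos2+ cells. Relative to these, F7 was 1.16-fold in Stat4fl/flCD11cCre and 1.08-fold in WT, Apoc2 1.05-fold and 1.14-fold, and Ms4a7 1.12-fold and 1.62-fold. Fn1 was 0.923 times and 1.12-fold, and Mmp12 0.570 times and 0.713 times. The 10 lowest and 10 highest genes were ranked by the library with the weaker ratio, among genes with 50 or more CPM in the higher set of both libraries. Inhba, which encodes the activin A subunit, stood at 70.7 CPM in Arg1+Nos2- cells against 301 CPM in Arg1+Nos2+ cells in Stat4fl/flCD11cCre, and at 72.5 CPM against 313 CPM in WT. Cxcl9, an interferon-γ induced chemokine gene, was 0.286 times the Arg1+Nos2+ level in Stat4fl/flCD11cCre and 0.348 times in WT, and Acod1, whose enzyme makes itaconate, was 0.397 times in each. Upp1, Timp1, Serpina3g, Ifi205, Il1rn and Sdc1 completed the 10 lowest with Nos2 itself, between 0.282 and 0.477 times. Pdpn and Mrc1 lay below that CPM limit, Pdpn at 0.433 and 0.442 times and Mrc1 at 2.80-fold and 2.12-fold the Arg1+Nos2+ level in Stat4fl/flCD11cCre and WT.

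Selenop, which encodes selenoprotein P, was first by that rank among the genes that were higher in Arg1+Nos2- cells. It stood at 181 CPM in Stat4fl/flCD11cCre and 186 CPM in WT, 1.79-fold and 1.93-fold above the Arg1+Nos2+ cells. Ccr2 was 1.60-fold higher in Stat4fl/flCD11cCre and 1.52-fold in WT, and Ifngr1, the interferon-γ receptor chain gene, 1.57-fold and 1.64-fold. Cd83, Prkcb, Tmem37, Tmem176b, Ap1s2, Clec4a3 and Kctd12 made up the rest of the 10 highest, between 1.49-fold and 2.03-fold. The companion markers did not separate the sets alike, since Gpnmb was 1.45-fold higher in Arg1+Nos2- cells in Stat4fl/flCD11cCre and 1.28-fold in WT, while Spp1 was 0.860 times and 0.744 times the Arg1+Nos2+ level. Arg1+Nos2+ cells were somewhat deeper (medians of 11769 UMIs in Stat4fl/flCD11cCre and 9131 in WT), and the part of depth in this split was not tested.

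**Figure D2:**
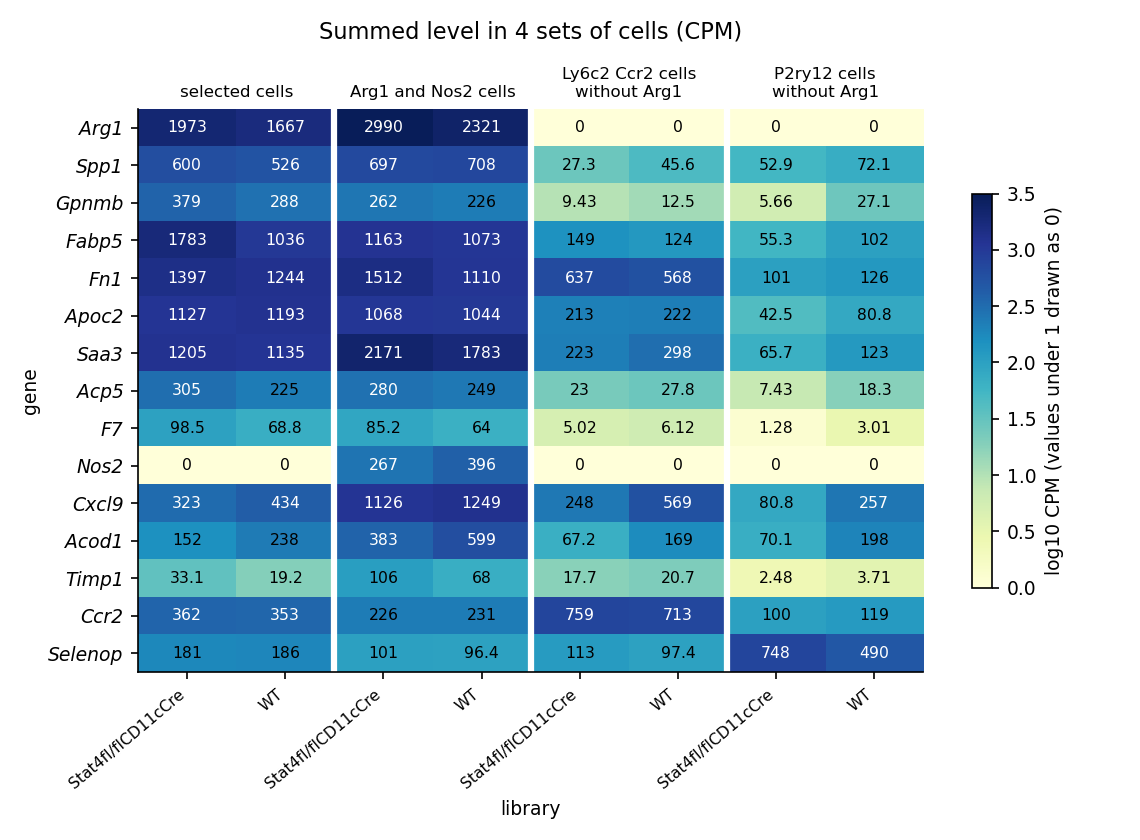
Summed level (CPM, printed in each cell and coloured on a log10 scale) of 15 genes in 4 sets of cells, with the Stat4fl/flCD11cCre library left of the WT library in each set. Spp1, Gpnmb and Fabp5 are high in both Arg1 sets and low in the Ly6c2 Ccr2 and P2ry12 cells, whereas Cxcl9, Acod1 and Timp1 are lower in the selected cells than in the Arg1 and Nos2 cells.

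Monocyte-like cells without Arg1 were defined by 2 or more Ly6c2 UMIs, 1 or more Ccr2 UMIs and none of Arg1, Nos2, Cd3e, P2ry12 or Ly6g (968 cells in Stat4fl/flCD11cCre and 1055 in WT). Arg1+Nos2- cells had 379 CPM of Gpnmb against 9.43 CPM in these cells in Stat4fl/flCD11cCre, and 288 CPM against 12.5 CPM in WT. Spp1 stood at 600 CPM against 27.3 CPM in Stat4fl/flCD11cCre and at 526 CPM against 45.6 CPM in WT. Ccr2 stood at 362 CPM in Arg1+Nos2- cells against 759 CPM in Stat4fl/flCD11cCre and at 353 CPM against 713 CPM in WT, but the comparison cells were chosen by Ccr2, so that difference was set by the choice.

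Antibody tags, DNA-barcoded antibodies counted in the same droplets, gave a readout that the rule did not use. The 5 tags were CD11b, CD172a, MERTK, XCR1 and CD317. CD11b, an integrin of myeloid cells, had a median of 1437 tag UMIs per selected cell in Stat4fl/flCD11cCre and 1254 in WT, 3.41-fold and 3.19-fold the median of all other kept cells. It was also 2.94-fold in Stat4fl/flCD11cCre and 2.23-fold in WT over the Ly6c2 Ccr2 cells. Against Arg1+Nos2+ cells the CD11b ratio was 0.920 in Stat4fl/flCD11cCre and 0.871 in WT, with quartile ranges that overlap almost fully. CD172a (SIRPα) had medians of 587 in Stat4fl/flCD11cCre and 378 in WT, and MERTK, a receptor for apoptotic cells, 112 and 53.5.

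All 5 tags had higher medians in the selected cells than in the Ly6c2 Ccr2 cells. The median tag total per cell was 2392 in selected cells against 960 in Ly6c2 Ccr2 cells in Stat4fl/flCD11cCre, and 1866 against 919 in WT. The MERTK tag was 2.55-fold in Stat4fl/flCD11cCre and 2.55-fold in WT over the Ly6c2 Ccr2 cells, and the XCR1 tag 2.32-fold and 2.14-fold. As a share of a cell's tags, MERTK had a median of 4.82% in selected cells against 5.14% in Ly6c2 Ccr2 cells in Stat4fl/flCD11cCre, and 3.01% against 2.82% in WT, while CD11b had 61.8% against 50.2% and 68.9% against 59.7%. Some of the tag differences between genotypes were not particular to these cells. MERTK was 2.09-fold higher in Stat4fl/flCD11cCre than in WT among selected cells and 2.15-fold among all other kept cells, and CD172a 1.55-fold and 1.48-fold. XCR1, a receptor of a dendritic cell subset, was 1.83-fold higher in Stat4fl/flCD11cCre in both. Xcr1 RNA came to 1 UMI in the selected Stat4fl/flCD11cCre cells and 2 UMIs in the selected WT cells, while the XCR1 tag had medians of 86 and 47. CD317, the product of the interferon-induced gene Bst2, was 1.35-fold higher in Stat4fl/flCD11cCre among selected cells and 0.939 times among all others. Staining and genotype cannot be told apart here.

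**Figure D3:**
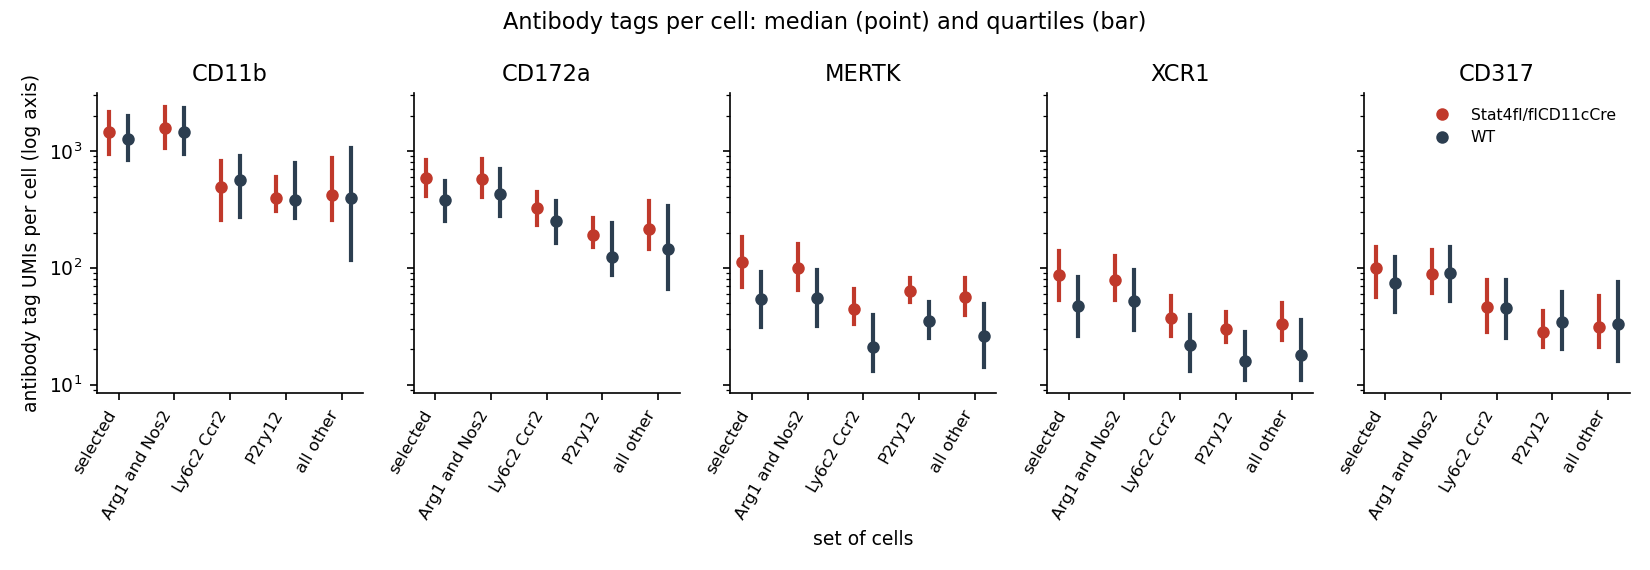
Antibody tag UMIs per cell on a log axis for 5 tags, as the median (point) and quartiles (bar) in the selected cells, the 3 comparison sets and all other kept cells, with Stat4fl/flCD11cCre left of WT. The CD11b medians of both Arg1 sets lie above those of the other sets, with quartiles that overlap in WT, and the CD172a, MERTK and XCR1 medians are higher in Stat4fl/flCD11cCre in every set drawn.

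Between genotypes, most genes of the Arg1+Nos2- cells lay within 1.5-fold. Of 7414 genes with 100 or more UMIs over both libraries, 79 (1.07%) were 1.5-fold or more higher in Stat4fl/flCD11cCre and 150 (2.02%) were 1.5-fold or more lower, and the median log2 ratio was −0.02. The same cut took in 3.12% lower genes in Arg1+Nos2+ cells, 4.54% in Ly6c2 Ccr2 cells and 8.04% in P2ry12 cells without Arg1. Those sets differ in how many cells and UMIs they hold, so the shares are not a ranking of effect.

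Plcb4, which encodes phospholipase C β4, was far higher in Stat4fl/flCD11cCre and was spread over many cells. It had 442 UMIs (82.7 CPM) in the Stat4fl/flCD11cCre cells and 27 UMIs (5.63 CPM) in the WT cells, a log2 ratio of 3.88 (3.32 to 4.49). A Plcb4 UMI was found in 19.7% of the thinned Stat4fl/flCD11cCre cells and 1.92% of the thinned WT cells (41.8% and 4.06% before thinning). The gene was also higher in Stat4fl/flCD11cCre in Arg1+Nos2+ cells (log2 ratio 3.29), Ly6c2 Ccr2 cells (2.25) and P2ry12 cells (1.55), so it was not confined to the selected cells. In Cd3e cells it was found in 276 of 1102 Stat4fl/flCD11cCre and 239 of 2375 WT cells after thinning.

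The other genes of the 12 highest ratios included lipid, hypoxia and signalling genes. Hilpda, whose product restrains lipid droplet breakdown, stood at 82.8 CPM in Stat4fl/flCD11cCre and 37.3 CPM in WT, a log2 ratio of 1.15 (0.90 to 1.41). Fabp5 stood at 1783 CPM in Stat4fl/flCD11cCre and 1036 CPM in WT, with a ratio of 0.78 (0.73 to 0.83). Cd63, a tetraspanin gene of late endosomes, stood at 421 CPM in Stat4fl/flCD11cCre and 284 CPM in WT (0.57, or 0.47 to 0.67), just under 1.5-fold. The Fabp5 ratio was 0.12 in Arg1+Nos2+ cells, 0.27 in Ly6c2 Ccr2 cells and −0.88 in P2ry12 cells; whether these ratios differ from the one in the selected cells was not tested. When selected cells with a UMI of a gene that defines microglia, neutrophils, B cells, dendritic cells or choroid plexus were left out, the Fabp5 ratio came to 0.32, below 1.5-fold.

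Rgs1, a regulator of G protein signalling, had 164 CPM in Stat4fl/flCD11cCre and 72.5 CPM in WT (1.18, or 1.00 to 1.36). Osm, which encodes the cytokine oncostatin M, had 97.1 CPM in Stat4fl/flCD11cCre and 49.0 CPM in WT (0.99, or 0.76 to 1.22). Thbs1, which encodes the matrix glycoprotein thrombospondin-1, had 278 CPM in Stat4fl/flCD11cCre and 153 CPM in WT (0.86, or 0.73 to 0.99). Nr4a3 and Nr4a2, nuclear receptor genes induced early after stimulation, had ratios of 0.84 and 0.74, and Tmem176a and the growth factor gene Nrg1 had 0.74 and 0.68. Jchain, the antibody joining chain gene of plasma cells, headed the ranking with 457 UMIs in Stat4fl/flCD11cCre and 1 in WT (8.68, or 6.19 to 13.99), and 99.6% of the Stat4fl/flCD11cCre UMIs lay in 1 cell. In the 56 Stat4fl/flCD11cCre and 94 WT cells with under 2 genes of any other cell list, Hilpda had a ratio of −1.52 and Rgs1 of 0.036. With cells thinned before selection, Osm had 0.32 and Cd63 0.23.

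**Figure D4:**
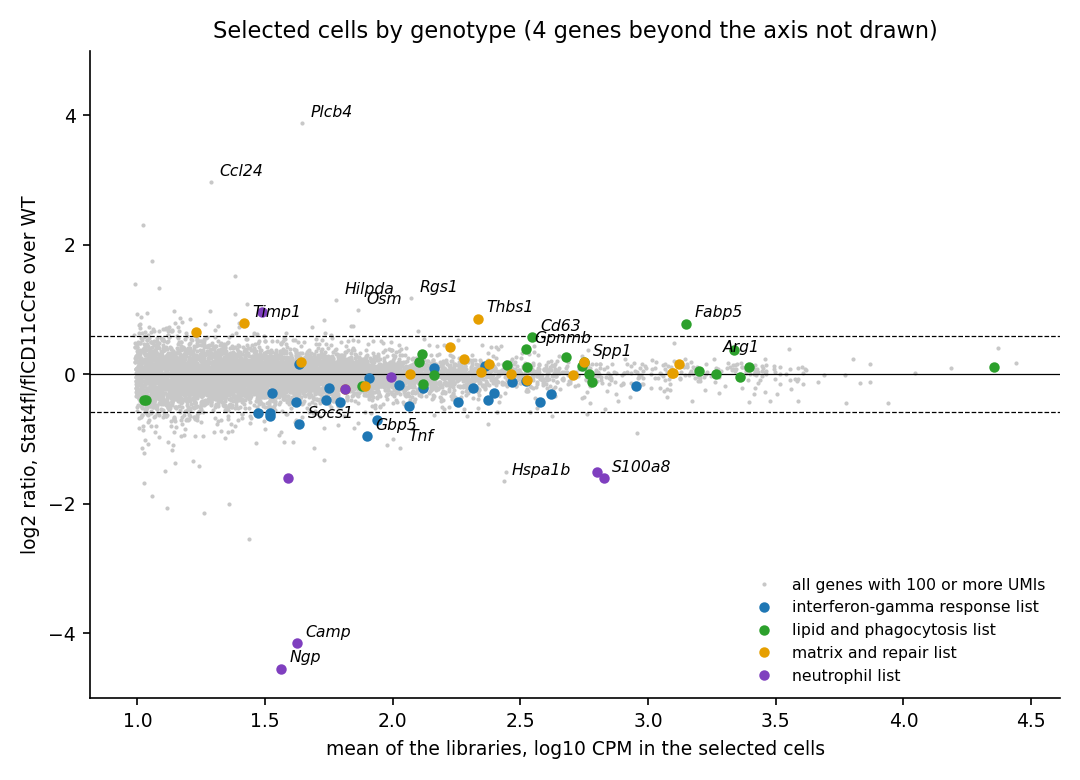
Log2 ratio of Stat4fl/flCD11cCre over WT in the selected cells against the mean level (log10 CPM) for 7414 genes with 100 or more UMIs, with 4 gene lists coloured and dashed lines at 1.5-fold; 4 genes beyond a log2 ratio of 5 are not drawn. Most genes lie near 0, the interferon-γ response genes lie mostly below it, and Ngp and Camp at the bottom owe 52.1% and 58.6% of their WT UMIs to 1 cell each.

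Among the 12 lowest ratios, heat shock genes stood together. Hspa1b and Hspa1a, the inducible HSP70 genes, had 132 and 145 CPM in Stat4fl/flCD11cCre, against 412 and 413 CPM in WT, with log2 ratios of −1.65 (−1.77 to −1.52) and −1.51 (−1.63 to −1.39). They are near-identical copies, so reads could be split between them. The ratios were negative in the other sets too, between −1.51 and −0.67. Of 19 immediate early and heat shock genes, 0 were 1.5-fold higher and 4 were lower, against 1.07% and 2.02% of all genes tested. Their median was 0.01, while Fos stood at 1470 CPM in Stat4fl/flCD11cCre and 1050 CPM in WT (0.49).

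Tnf, the tumour necrosis factor gene, stood at 66.8 CPM in Stat4fl/flCD11cCre and 146 CPM in WT, a log2 ratio of −1.13 (−1.32 to −0.95). Il1r2, the decoy receptor gene for interleukin-1, had 30.7 CPM in Stat4fl/flCD11cCre and 67.5 CPM in WT (−1.14, or −1.42 to −0.86), and the tetraspanin gene Cd81 had 30.9 and 77.1 CPM (−1.32). Polr2l, an RNA polymerase subunit gene, had 60.6 CPM in Stat4fl/flCD11cCre and 129 CPM in WT (−1.09). Polr2l was also lower in the other sets, at −0.73 to −1.03. Tnf had ratios of −0.74 in Arg1+Nos2+ cells, −2.02 in Ly6c2 Ccr2 cells and −1.24 in P2ry12 cells. Il1r2 had −1.18, −0.42 and −0.87 in the same order, and Cd81 −1.98, −0.96 and 0.10. The differences in Polr2l, Tnf and Il1r2 were thus not confined to the selected cells. In the 56 Stat4fl/flCD11cCre and 94 WT cells with under 2 genes of any other cell list, Tnf had a ratio of −0.11 and Il1r2 of 0.51. Cd81 had −0.23 without the cells holding a defining gene of other cell types, and it stood at 1732 CPM in Stat4fl/flCD11cCre and 1611 CPM in WT in the P2ry12 cells, far above the selected cells.

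The remaining 5 of the 12 lowest were neutrophil genes. S100a8 and S100a9, which encode calprotectin, had 333 and 328 CPM in Stat4fl/flCD11cCre, against 1009 and 934 CPM in WT (log2 ratios −1.60 and −1.51). Lcn2, the lipocalin-2 gene, had 19.3 CPM in Stat4fl/flCD11cCre and 58.8 CPM in WT (−1.61). The cell with most UMIs of each gene held 32.4% of S100a8, 33.2% of S100a9 and 37.2% of Lcn2 UMIs in WT. In Stat4fl/flCD11cCre these shares were 30.1%, 35.1% and 32.0%. At equal depth, S100a8 was found in 21.1% of Stat4fl/flCD11cCre and 29.3% of WT cells, and Lcn2 in 2.52% and 4.79%. S100a9 went the other way, with 13.1% and 11.5%. Ngp and Camp, genes of neutrophil granules, had ratios of −4.55 and −4.15, but 52.1% and 58.6% of their WT UMIs came from 1 cell. Over all 10 neutrophil genes, the sum was 896 CPM in Stat4fl/flCD11cCre and 2352 CPM in WT, and each of the 10 was found in both libraries. With 4 or more Arg1 UMIs required, the median log2 ratio of the tested neutrophil genes was 0.05, in place of −1.55. Microglia genes moved the same way, with a sum over 10 genes of 514 CPM in Stat4fl/flCD11cCre and 787 CPM in WT, and none of the 10 at 0. The part of such RNA in the other differences was not tested.

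Interferon-γ response genes had a median ratio below that of all genes. Of the 30 listed genes 27 had 100 or more UMIs, and of these 0 were 1.5-fold or more higher and 6 were lower, against 1.07% and 2.02% of all genes tested, and their median log2 ratio was −0.31, against −0.02 over all genes. The 6 were Gbp5, Socs1, Iigp1, Gbp6, Gbp4 and Irgm2, which encode interferon-inducible GTPases apart from Socs1. Gbp5 stood at 54.0 CPM in Stat4fl/flCD11cCre and 105 CPM in WT (−0.96, or −1.17 to −0.74). Socs1, whose product inhibits interferon signalling, stood at 31.8 CPM in Stat4fl/flCD11cCre and 54.2 CPM in WT (−0.77, or −1.06 to −0.49). Irf1, a transcription factor of the response, had a ratio of −0.43, and the receptor gene Ifngr1 had 0.13. The list's median was −0.20 without the cells holding a defining gene of other cell types, −0.14 when cells were thinned before selection, and 0.00 over the 56 Stat4fl/flCD11cCre and 94 WT cells that had under 2 genes of any other cell list.

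The promoters of 3 of these genes show the sequence context of the response. GAS elements, the interferon-γ-activated sites, were searched as TTCNNNGAA, and ISRE elements, bound by interferon regulatory factors, as GAAANNGAAA, on both strands of the 250 bases before each start site, with overlaps counted. Of 32851 promoters in RefSeq's table (GRCm38.p6), 7.02% held a GAS match and 2.98% an ISRE match. Of the 27 interferon-γ genes, 20 had an entry, and 9 of these held GAS and 8 held ISRE. Gbp5, Irgm2 and Socs1 were the genes of the 6 shown here; capitals mark the matches, written 5′ to 3′ on the gene's strand. A match is a description of these letters, not a binding site. Gbp5 (chr3:142496684-142496933, plus strand) has 2 GAS and 1 ISRE match, Irgm2 (chr11:58214727-58214976, plus strand) 1 of each, and Socs1 (chr16:10785537-10785786, minus strand) 2 overlapping ISRE matches.
Gbp5: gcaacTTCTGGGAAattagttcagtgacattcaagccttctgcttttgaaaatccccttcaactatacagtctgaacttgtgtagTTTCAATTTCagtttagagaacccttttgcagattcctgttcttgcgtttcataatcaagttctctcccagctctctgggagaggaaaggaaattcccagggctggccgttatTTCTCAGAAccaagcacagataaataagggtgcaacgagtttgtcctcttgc
Irgm2: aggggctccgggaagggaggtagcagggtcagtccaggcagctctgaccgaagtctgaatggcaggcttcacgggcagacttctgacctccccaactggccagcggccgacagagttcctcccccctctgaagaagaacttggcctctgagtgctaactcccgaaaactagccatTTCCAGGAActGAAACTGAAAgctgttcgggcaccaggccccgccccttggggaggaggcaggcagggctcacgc
Socs1: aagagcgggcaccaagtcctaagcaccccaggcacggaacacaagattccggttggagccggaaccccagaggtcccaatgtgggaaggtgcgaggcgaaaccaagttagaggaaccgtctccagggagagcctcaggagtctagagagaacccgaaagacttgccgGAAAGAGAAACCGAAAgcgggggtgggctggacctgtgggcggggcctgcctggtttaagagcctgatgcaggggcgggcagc

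Of 26 type I interferon genes, 0 were higher and 3 lower, against 1.07% and 2.02% of all genes tested, with a median of −0.21. The median turned to 0.40 in the cells with under 2 genes of any other cell list. Oasl1 stood at 18.9 CPM in Stat4fl/flCD11cCre and 39.6 CPM in WT (−1.07, or −1.43 to −0.71), with Ifit3 at −0.71 and Ifit2 at −0.65. MHC class II genes were nearly equal, with 0 of 9 past 1.5-fold in either direction and a median of 0.00. H2-Aa stood at 4246 CPM in Stat4fl/flCD11cCre and 4061 CPM in WT (0.06), and Cd74, the invariant chain gene, at 11133 and 11018 CPM (0.01). Cells of both genotypes were sorted for MHC class II and CD11c, and the part of the sort in these values was not tested.

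The same lists were lower by more in cells without Arg1. The median log2 ratio of the interferon-γ list was −0.38 in Arg1+Nos2+ cells (5 of 27 genes lower), −0.73 in Ly6c2 Ccr2 cells (18 of 29) and −1.32 in P2ry12 cells (25 of 29). For MHC class II it was 0.02 in Arg1+Nos2+ cells, −0.52 in Ly6c2 Ccr2 cells and −0.97 in P2ry12 cells. Over all genes tested, 3.12% were 1.5-fold or more lower in Arg1+Nos2+ cells, 4.54% in Ly6c2 Ccr2 cells and 8.04% in P2ry12 cells. All these values come from the same pair of libraries and were not tested against each other.

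**Figure D5:**
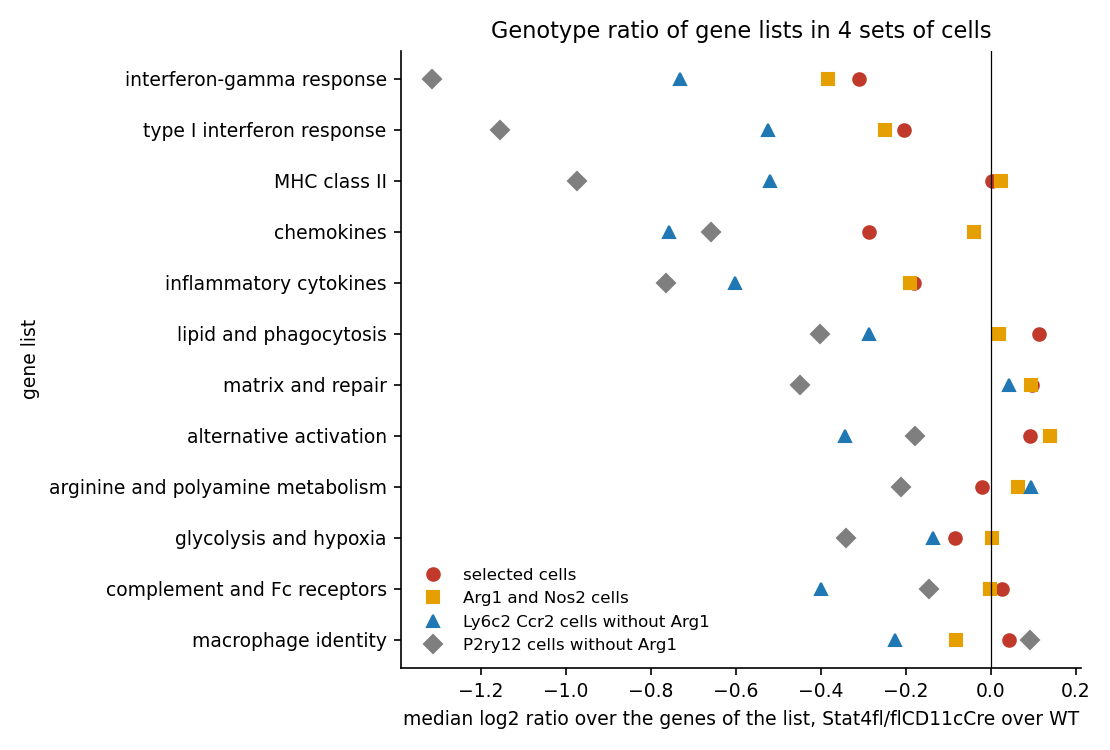
Median log2 ratio of Stat4fl/flCD11cCre over WT for 12 gene lists in the selected cells and 3 comparison sets. For the interferon and MHC class II lists the selected cells and the Arg1 and Nos2 cells lie nearer to 0 than the Ly6c2 Ccr2 cells and the P2ry12 cells; for most other lists the selected cells lie within 0.2 of 0.

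Of 16 chemokine genes 1 was higher and 4 were lower, against 1.07% and 2.02% of all genes tested, with a median of −0.29. The median turned to 0.30 in the cells with under 2 genes of any other cell list. Ccl2 and Ccl12, ligands of CCR2, stood at 85.8 and 24.3 CPM in Stat4fl/flCD11cCre, against 154 and 50.4 CPM in WT (−0.85 and −1.05). Cxcl10 stood at 176 CPM in Stat4fl/flCD11cCre and 298 CPM in WT (−0.76, or −0.88 to −0.64), and Ccl7 was the fourth. Ccl24, an eosinophil chemokine gene of alternatively activated macrophages, went the other way with 184 UMIs in Stat4fl/flCD11cCre and 21 in WT (34.4 and 4.38 CPM, 2.97, or 2.32 to 3.70). It was found in 25 Stat4fl/flCD11cCre cells, and the ratio was 2.86 without the cell with most UMIs in each library. Ccl12 had a ratio of 0.10 without the cells holding a defining gene of other cell types. Cxcl10 had 0.53 in the cells with under 2 genes of any other cell list.

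Among 12 genes of alternative activation, 2 were higher and 0 lower, against 1.07% and 2.02% of all genes tested. Their median was 0.09, and it was −0.082 with a minimum of 300 UMIs per gene. They were Ccl24 and Mrc1, the mannose receptor gene, at 60.4 CPM in Stat4fl/flCD11cCre and 36.3 CPM in WT (0.74, or 0.47 to 1.01). Chil3, which encodes a chitinase-like protein, stood at 2575 CPM in Stat4fl/flCD11cCre and 2331 CPM in WT (0.14), and Retnla, another gene of that programme, was at 0 UMIs in both. Inflammatory cytokine genes had 1 of 13 higher (Osm) and 2 lower (Tnf and Tnfsf9), and Il1b stood at 1360 CPM in Stat4fl/flCD11cCre and 1177 CPM in WT (0.21). Of 18 matrix and repair genes, 3 were higher (Thbs1, Timp1 and Pdpn) and 0 lower, with a median of 0.10; Timp1 and Pdpn had 177 and 111 UMIs in Stat4fl/flCD11cCre and 92 and 63 in WT. With cells thinned before selection, Timp1 had −0.22 and Pdpn −0.60.

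The arginine pathway list had a median ratio close to that of all genes tested. Of 16 genes, 0 were 1.5-fold higher and 1 was lower, against 1.07% and 2.02% of all genes tested, with a median of −0.02. Acod1, kept in that list for its place in the metabolism of activated macrophages, was the lower gene, at 152 CPM in Stat4fl/flCD11cCre and 238 CPM in WT (−0.65, or −0.78 to −0.51). The arginine transporter gene Slc7a2 stood at 183 CPM in Stat4fl/flCD11cCre and 184 CPM in WT (−0.01). Ass1, whose enzyme rebuilds arginine from citrulline, had 303 CPM in Stat4fl/flCD11cCre and 362 CPM in WT (−0.25), and Odc1, which takes ornithine to polyamines, had 38.7 and 32.3 CPM (0.26). Of 25 genes of glycolysis and hypoxia, Hilpda was higher and Hk2, a hexokinase gene, was lower, at 205 CPM in Stat4fl/flCD11cCre and 308 CPM in WT (−0.59).

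Lipid and phagocytosis genes had a median log2 ratio of 0.11 over 23 genes (−0.16 in the cells with under 2 genes of any other cell list), with Fabp5 past 1.5-fold and none lower by that much. Over all genes tested, 1.07% were higher and 2.02% lower. Ctsd, a lysosomal protease gene, stood at 2455 CPM in Stat4fl/flCD11cCre and 1900 CPM in WT (0.37), and Gpnmb at 379 and 288 CPM (0.39, or 0.30 to 0.49). Trem2, a lipid-sensing receptor gene, stood at 519 CPM in Stat4fl/flCD11cCre and 432 CPM in WT (0.26), and Apoe at 23566 and 21862 CPM (0.11). Complement and Fc receptor genes (14), iron and heme genes (12) and macrophage identity genes (12) had none past 1.5-fold, with medians of 0.03, 0.02 and 0.04.

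Within each library the selected cells were split into tertiles of Arg1 UMIs per UMI, and the top was set against the bottom as a description (147 and 148 cells in Stat4fl/flCD11cCre, 180 and 181 in WT). Among genes with 100 or more UMIs over both tertiles, 3.1% were 1.5-fold higher and 3.97% lower at the top in Stat4fl/flCD11cCre, and 2.63% higher and 4.31% lower in WT. Spp1 had the highest ratio. It stood at 891 CPM at the top and 239 CPM at the bottom in Stat4fl/flCD11cCre, and at 988 and 268 CPM in WT, log2 ratios of 1.90 and 1.88. Fn1 had ratios of 1.15 in Stat4fl/flCD11cCre and 1.07 in WT, and Slc7a2, the arginine transporter gene, 0.96 and 1.03. Junos, Pde4d, Cacna1d, Grina and Fcor made up the rest of the 8 highest. Fabp5 had 0.66 and 0.81, while Gpnmb had 0.29 and 0.18, so the markers did not track Arg1 alike.

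Some interferon and immediate early genes were lower in the cells richest in Arg1. Of the type I interferon genes measured, 14 of 20 were 1.5-fold lower at the top in Stat4fl/flCD11cCre and 8 of 20 in WT, and of the interferon-γ genes 7 of 24 and 10 of 27. Of immediate early and heat shock genes, 8 of 18 were lower in Stat4fl/flCD11cCre and 4 of 19 in WT. In these 3 lists 0 genes were 1.5-fold higher at the top in either library. Over all genes, 3.97% were lower and 3.1% higher at the top in Stat4fl/flCD11cCre, and 4.31% and 2.63% in WT. Cxcl9 stood at 214 CPM at the top and 359 CPM at the bottom in Stat4fl/flCD11cCre, and at 302 and 600 CPM in WT. Ifitm6, Serpina3g, Dusp2, Csrnp1, Id3, Klf2 and Tmem176b were among the 8 lowest. Lipid and phagocytosis genes leaned the other way, with 6 of 21 higher at the top in Stat4fl/flCD11cCre and 4 of 21 in WT, as did genes of glycolysis and hypoxia with 4 of 25 and 4 of 24.

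Other genes behaved differently in the libraries. Cxcl10 had a log2 ratio of top over bottom of 1.15 in Stat4fl/flCD11cCre and −0.44 in WT, and Chil3 had 1.10 and 0.12. The difference between libraries in these within-library ratios was not tested. Neutrophil genes were 1.5-fold higher at the top for 4 of 5 genes in Stat4fl/flCD11cCre and lower for 5 of 7 in WT. Over all genes, 3.1% were higher in Stat4fl/flCD11cCre and 4.31% lower in WT. Single cells held 30.1% of S100a8 and 35.1% of S100a9 UMIs of the selected Stat4fl/flCD11cCre cells. In WT they held 32.4% of S100a8, 33.2% of S100a9, 52.1% of Ngp and 58.6% of Camp UMIs. The part of such cells in this split was not tested.

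Few of the selected cells carried a proliferation programme. At equal depth, UMIs of 3 or more of 20 proliferation genes were found in 1.61% of Stat4fl/flCD11cCre cells (7 of 436) and 2.87% of WT cells (15 of 522), against 8.54% and 11.8% of the other kept cells. Without thinning the shares were 20.3% in Stat4fl/flCD11cCre and 20.1% in WT, against 22.2% and 28.9% of the other kept cells. Mki67 had 67 UMIs in the selected Stat4fl/flCD11cCre cells and 94 UMIs in the selected WT cells.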

How the data were processed

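The deposited UMI counts per gene and antibody tag, 1 matrix for each library, were made by the authors with Cell Ranger 7.0.0 on mm10, per the submitters' processing notes, which also name bcl2fastq, STAR, Seurat and R 4.3.0. The counts are whole numbers, not normalized. Cells were kept, selected and compared as given above; doublets were left in, because Scrublet's automatic threshold in scanpy 1.11.5 called 1 and 0 cells and so did not work. UMIs of a gene were summed over the cells of a set and divided by the set's gene UMIs (CPM). Ratios carry exact conditional binomial intervals and shares exact Clopper-Pearson intervals at the 95% level (scipy 1.17.1). UMIs of 1 cell are not independent draws, so true error is wider. The ratio step was tested on simulated counts for the comparison of genotypes in the selected cells over 7408 genes. Among 7216 genes left unchanged, 95.7% had the simulated ratio inside their interval. The direction was recovered for 90.9% of 66 genes changed 1.5-fold. The simulated UMIs were independent draws, which the interval assumes, so the simulation checks the calculation and not the error from cells or pools of mice.

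Genes named by genotype are the 12 highest and 12 lowest by the interval bound nearest to 1, with 100 or more UMIs and 50 CPM in the higher library, leaving out mitochondrial, ribosomal, haemoglobin, antibody, T cell receptor, sex-linked and predicted genes; up to 4 more per list follow that rank. Genes outside these ranks (Ccl7, Gbp4, Gbp6, Irgm2, Ifngr1, Trem2 and other context genes) were named for their role or list. Some genes that the rule ranks are not reported here. The members and the 30 lists were chosen with earlier results of these data known. Reads map near 3′ ends, and CPM is not divided by gene length.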

Additional observations from a re-analysis of the deposited data

How the results depend on the processing

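No paired analysis was possible because each genotype has 1 library. Of 52 named genes past 1.5-fold, 35 kept their direction under every alternative that gave them a value, and 11 stayed past 1.5-fold in every such alternative. Among the 11 were Plcb4, Thbs1, Ccl24, Jchain, Gbp5, Oasl1, Hspa1a, Hspa1b, Polr2l and Upp1. Of 12 alternatives, Jchain had a value in only 8 and Ccl24 in 11. A single cell held 99.6% of the Jchain UMIs in Stat4fl/flCD11cCre, so its place there does not show a stable difference. As reported, 79 genes were higher and 150 lower of 7414 tested. The counts were 34 and 93 of 4040 genes with cells thinned before selection, and 391 and 754 of 10719 with a minimum of 20 UMIs. They were 20 and 48 of 4258 with a minimum of 300, and 13 and 33 of 7414 at 2-fold. The number of genes tested changes with the setting, so the counts cannot be compared without it. Removing cells with 2 or more genes of another cell list left 56 Stat4fl/flCD11cCre and 94 WT cells, with counts of 46 and 50 over 1557 genes and a share ratio of 0.644. Alternatives chosen after seeing the data gave 162 and 342 of 10475 genes with P2ry12 UMIs allowed. Without cells holding a defining gene of other cells, 83 genes were higher and 88 lower of 5496. The share ratio was 1.17 without P2ry12 cells in the denominator and 1.20 over Arg1 cells. The share ratio was 0.875 with a stricter cell filter, 0.810 with 1 or more Arg1 UMIs and 0.869 with cells thinned before selection, with intervals below 1. It was 0.984 with 4 or more Arg1 UMIs and 0.894 without the cells scored highest for doublets, with intervals that spanned 1. Without cells holding a defining gene of other cells it was 0.921, and that interval spanned 1 too.

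Of 22 list medians, 3 (matrix and repair, border macrophage and proliferation) kept their sign under every alternative that gave them a value. The median of the interferon-γ list ranged from −0.45 to 0.00, type I interferon from −0.41 to 0.40, chemokines from −0.33 to 0.30, lipid and phagocytosis from −0.16 to 0.13, alternative activation from −0.082 to 0.18, inflammatory cytokines from −0.23 to 0.0073, Arg1 with its 3 companion markers from −0.39 to 0.45 and microglia from −0.72 to 0.11.

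Directions turned as follows, in log2 ratios. With 4 or more Arg1 UMIs, the neutrophil list had 0.053, Ngp 0.35, Camp 2.10, S100a8 0.052 and S100a9 0.26. Thinned before selection, Timp1 had −0.22 and Pdpn −0.60. Without the 10% of cells scored highest for doublets, Ngp had 0.50, Camp 2.40 and Gzma 1.90. In the cells with under 2 genes of another list, Hilpda had −1.52, Pdpn −1.52, S100a9 0.36, Gzma 0.36, Il1r2 0.51, Ccl12 1.14, Cxcl10 0.53, Ifit2 0.58 and Mki67 0.19. Without cells holding a defining gene, Lcn2 had 0.27, Ccl12 0.10, Gzma 0.89, Siglech 1.89 and Elane 0.84. With P2ry12 UMIs allowed, Gzma had 0.00983, Siglech 0.10 and Ttr 0.36. The cause was not tested. Fewer cells and UMIs widen the intervals, so at this depth differences in genes with few UMIs could not be resolved.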

Other observations

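Genes of border macrophages, which line the vessels and meninges, were found at a summed 658 CPM in the selected Stat4fl/flCD11cCre cells and 625 CPM in the selected WT cells, against 276 and 215 CPM in the other kept cells. Most of the sum came from F13a1 (352 CPM in Stat4fl/flCD11cCre and 382 CPM in WT) and Ms4a7 (202 and 172 CPM), which monocyte-derived cells also carry. Pf4 stood at 42.5 CPM in Stat4fl/flCD11cCre and 33.1 CPM in WT, while Folr2 was at 0 in Stat4fl/flCD11cCre, and Cd163 and Lyve1 were at 0 in WT.

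Batf3, a transcription factor gene of conventional dendritic cells, had 93 UMIs in the selected Stat4fl/flCD11cCre cells and 33 in the selected WT cells, a log2 ratio of 1.34 (0.75 to 1.96). The summed level of the 10 dendritic cell genes was 50.7 CPM in Stat4fl/flCD11cCre and 39.8 CPM in WT. Il12b, a subunit gene of interleukin-12 and interleukin-23 upstream of STAT4, had 0 UMIs in Stat4fl/flCD11cCre and 6 in WT.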
